A study of Mus musculus with 12 samples.

Results

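The miRNAs described here are the 4 precursors known to respond to TLR4 and NF-κB signalling, mmu-mir-21a, mmu-mir-146a, mmu-mir-146b and mmu-mir-155, which were chosen by name for that known response and make up 4 of the 589 precursors in the table. Earlier results of these data were known when they were chosen. Small RNA was sequenced from the cerebral cortex of female mice on a C57BL/6J background, which were 7 weeks old when the treatment began. Wild-type mice (WT) and TLR4-KO mice (TLR4-/-) drank either water or, for 5 months, water with 10% (v/v) ethanol (WT + EtOH and TLR4-KO + EtOH), which gives 4 groups. The knockout is not restricted to a cell type, so that no effect can be assigned to one. Each group had 3 libraries, 12 in all, and each library held the pooled RNA of 3 mice, so that an SD over libraries is a spread between pools and not between mice. The 9 mice of each group had been selected by the authors for RNA quality. Since small RNA libraries hold no Tlr4 mRNA, they offer no check of the knockout. The comparisons ask whether ethanol alters these miRNAs in the cortex and whether TLR4 is involved. Per the study's methods, the WT mice came from a commercial supplier and the TLR4-KO mice from another laboratory. A difference by genotype therefore cannot be told apart from one by origin of the mice.

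TLR4 is a receptor of innate immunity that recognizes bacterial lipopolysaccharide and signals through MyD88 and TRIF to the transcription factor NF-κB, and in the brain it is found above all on microglia, with astrocytes also reported to respond. NF-κB induces the genes of miR-146a and miR-155. miR-146a and miR-146b repress the adaptors Irak1 and Traf6 and thereby act as brakes on the receptor, whereas miR-155 represses inhibitors of inflammation such as Socs1 and Ship1 and is regarded as pro-inflammatory. miR-21 is induced together with them and represses Pdcd4, a promoter of inflammation.

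The mature sequences from RefSeq (GRCm38.p6) show which members share a seed, the bases 2 to 8 that pair with target mRNAs, printed in capitals. All 4 precursors were matched in RefSeq.
mmu-miR-21a-5p: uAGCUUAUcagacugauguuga
mmu-miR-146a-5p: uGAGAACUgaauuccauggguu
mmu-miR-146b-5p: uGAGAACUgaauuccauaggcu
mmu-miR-155-5p: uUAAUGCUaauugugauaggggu
miR-146a-5p and miR-146b-5p carry the same seed and, counted from 1 at the 5′ end of miR-146a-5p, differ by 2 substitutions, G18A and U21C. Reads cut short at the 3′ end, or aligned with mismatches allowed, could therefore be assigned to either precursor, and the split between mmu-mir-146a and mmu-mir-146b is uncertain to that degree. The seed of miR-21a-5p is shared by miR-21c, which has no row in the table, and that of miR-155-5p by no other mature miRNA in RefSeq. The opposite arms have seeds that no other mature miRNA in RefSeq shares, and they are shown because the table gives 1 value per precursor and does not separate the arms.
mmu-miR-21a-3p: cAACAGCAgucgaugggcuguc
mmu-miR-146a-3p: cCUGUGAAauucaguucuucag
mmu-miR-146b-3p: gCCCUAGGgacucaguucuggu
mmu-miR-155-3p: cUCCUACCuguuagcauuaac

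On GRCm38, with GENCODE M21 as annotation, the members lie at 4 separate loci. Mir21a (chr11:86584067-86584158, minus strand) lies within exon 12 of the protein-coding gene Vmp1 on the same strand, in its untranslated part. Mir146, the gene of mmu-mir-146a (chr11:43374397-43374461, minus strand), is not contained in any other annotated gene. Mir146b (chr19:46342762-46342870, plus strand) lies within Mfsd13a on the same strand, in an intron. Mir155 (chr16:84714140-84714204, plus strand) lies in exon 2 of the non-coding host gene Mir155hg. Transcription of Vmp1 or Mfsd13a was not measured here.

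The deposited values have no stated unit. They behave as a scaled logarithm that was set to a similar distribution in all libraries, with the highest value at 135 in each. The distributions were not identical, since the number of precursors above 0 differed. A value thus reflects above all the rank of a precursor within its library, and differences are given in units of this scale and not as folds. A value above 0 was found for 190 of the 589 precursors in all 12 libraries and for 324 in any of them, and the other 265 were always at 0. No reads stand beside the values. The study reports the number of miRNA reads for each group, lowest in TLR4-KO + EtOH, and these numbers were not used here. The number of precursors above 0 ran from 260 to 270 among the WT libraries, from 216 to 262 among those of TLR4-KO, and with ethanol from 229 to 270 (WT) and from 236 to 262 (TLR4-KO), and replicate 1 was the highest in each group. All 7 neuronal precursors of a marker list (those of miR-124, miR-128 and miR-138) were above 0 in every library.

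mmu-mir-21a, mmu-mir-146a and mmu-mir-146b were above 0 in all 12 libraries, and mmu-mir-155 in 2. By the mean over libraries, mmu-mir-146b held rank 95 among the 324 precursors with signal (48.9 ± 5.21, SD, n = 12), mmu-mir-21a rank 110 (43.9 ± 5.73) and mmu-mir-146a rank 111 (43.0 ± 7.17). The ranges of these 3 over the libraries overlapped. The rank of mmu-mir-155 was 288, with a mean of 1.83.

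**Figure D1:**
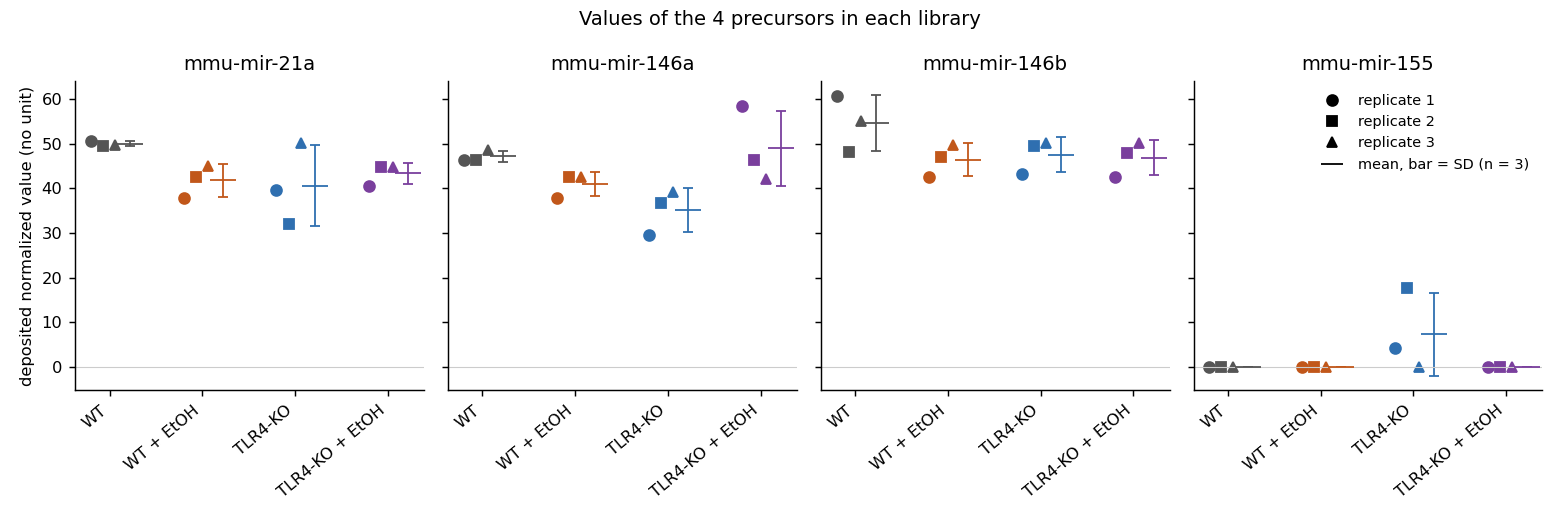
Deposited normalized values (y axis, no unit) of the 4 precursors in the 12 libraries, by group (x axis), with a marker shape for each replicate number and the mean with SD (n = 3) beside the points. mmu-mir-146a lies between 29.6 and 39.1 in TLR4-KO and between 42.1 and 58.3 in TLR4-KO + EtOH, and mmu-mir-155 is above 0 in 2 TLR4-KO libraries only.

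mmu-mir-146a is the feedback inhibitor of the receptor pathway. On water its values were 46.4, 46.4 and 48.6 in WT and 29.6, 36.8 and 39.1 in TLR4-KO (replicates 1 to 3). With ethanol they were 37.8, 42.5 and 42.5 in WT + EtOH and 58.3, 46.4 and 42.1 in TLR4-KO + EtOH. All WT + EtOH and all TLR4-KO libraries were thus below every WT library, whereas every TLR4-KO + EtOH library was above every TLR4-KO library and their range spanned that of WT. The group means, in descending order, were 49.0 ± 8.42 in TLR4-KO + EtOH, 47.1 ± 1.29 in WT, 40.9 ± 2.75 in WT + EtOH and 35.2 ± 4.98 in TLR4-KO (SD, n = 3), and of the neighbours in this order only WT and WT + EtOH had ranges that did not overlap. In rank, mmu-mir-146a was between 96.5 and 102 of 589 in WT, 124.5 and 157.5 in TLR4-KO and 70 and 115.5 in TLR4-KO + EtOH.

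The difference of mmu-mir-146a was −6.21 for WT + EtOH vs. WT (SE 4.10, 95% interval −15.6 to 3.19, adjusted p = 0.806 from limma). It was −11.998 for TLR4-KO vs. WT (95% interval −21.4 to −2.60, unadjusted p = 0.0184, adjusted p = 0.217 from limma). With ethanol in TLR4-KO mice it was 13.8 in the other direction (95% interval 4.40 to 23.2, unadjusted p = 0.00936, adjusted p = 0.394 from limma). The highest value of the 12 libraries, 58.3 in TLR4-KO + EtOH replicate 1, weighed on the last of these: without that library the difference was 9.10. TLR4-KO + EtOH and WT + EtOH differed by 8.01 (95% interval −1.39 to 17.4, adjusted p = 1 from limma), and 1 of the 3 TLR4-KO + EtOH libraries lay within the WT + EtOH range. Without TLR4-KO + EtOH replicate 1 this difference was 3.31. None of the differences of mmu-mir-146a passed the threshold of 0.05 after adjustment over the 589 precursors.

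mmu-mir-146b, which shares the seed of mmu-mir-146a, was at 60.7, 48.2 and 55.0 in WT and at 43.2, 49.4 and 50.2 in TLR4-KO. With ethanol it was at 42.5, 47.1 and 49.8 in WT + EtOH and at 42.5, 47.9 and 50.2 in TLR4-KO + EtOH. The WT libraries were spread widest, and WT replicate 2 lay within the range of each other group. The means were 54.6 ± 6.24 in WT, 47.6 ± 3.83 in TLR4-KO, 46.9 ± 3.96 in TLR4-KO + EtOH and 46.5 ± 3.66 in WT + EtOH (SD, n = 3), and the last 3 did not differ beyond their spread. The difference was −8.18 with ethanol in WT (95% interval −16.5 to 0.17, adjusted p = 0.418 from limma) and −7.06 for TLR4-KO vs. WT (95% interval −15.4 to 1.28, adjusted p = 0.529 from limma). Without WT replicate 1, the highest of the 12 libraries, these differences were −5.15 and −4.03. With ethanol in TLR4-KO mice it was −0.67 (95% interval −9.02 to 7.67), where mmu-mir-146a differed by 13.8. Over the 12 libraries, Pearson's r between both miR-146 precursors was 0.18, which is a description of values that share a normalization.

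mmu-mir-21a, whose product represses Pdcd4, was at 50.6, 49.5 and 49.8 in WT and at 39.6, 32.1 and 50.2 in TLR4-KO. With ethanol it was at 37.8, 42.5 and 45.0 in WT + EtOH and at 40.6, 44.8 and 44.7 in TLR4-KO + EtOH. Its WT libraries lay close together (SD 0.60), and 8 of the 9 libraries of the other groups were below every WT library, the exception being TLR4-KO replicate 3. All 9 are set against the same WT libraries. The share of all precursors with such a count was not computed, so that it describes the values only. The means were 50.0 ± 0.60 in WT, 43.4 ± 2.38 in TLR4-KO + EtOH, 41.8 ± 3.67 in WT + EtOH and 40.6 ± 9.08 in TLR4-KO (SD, n = 3), and the ranges of the 3 groups below WT overlapped. The difference was −8.21 for WT + EtOH vs. WT (95% interval −17.5 to 1.06, adjusted p = 0.518 from limma) and −9.35 for TLR4-KO vs. WT (95% interval −18.6 to −0.08, unadjusted p = 0.0484, adjusted p = 0.396 from limma). Without TLR4-KO replicate 3 the latter was −14.1 with an adjusted p of 0.0356 from limma, so that 1 library decided on which side of the threshold it fell, and without TLR4-KO replicate 2 it was −5.09. With ethanol in TLR4-KO mice the difference was 2.76 (95% interval −6.52 to 12.03), and it was −1.51 without TLR4-KO replicate 2. The study lists mmu-mir-21a among the miRNAs that ethanol did not change in its check by RT-qPCR, which used individual tissues and not pools.

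mmu-mir-155 was at 0 in all WT, WT + EtOH and TLR4-KO + EtOH libraries, and at 4.204, 17.8 and 0 in TLR4-KO. The 2 values above 0 held ranks 255.5 and 200 of 589 in their libraries, and TLR4-KO replicate 3 was listed at 0 like the other groups. A 0 in this table cannot be read as absence, since no reads are given with it. The difference for TLR4-KO vs. WT was 7.32 (95% interval −1.20 to 15.8, adjusted p = 0.520 from limma), with a spread that came from the TLR4-KO group alone, and it was 2.10 without TLR4-KO replicate 2 and 10.99 without TLR4-KO replicate 3. With ethanol in TLR4-KO mice the difference was −7.32 (adjusted p = 0.907 from limma), and in WT mice both groups were listed at 0, which gives no test.

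Across the members, limma called 0 of 4 for WT + EtOH vs. WT, where 1.7% of all precursors were called, 0 of 4 for TLR4-KO vs. WT (2.55%), 0 of 4 for TLR4-KO + EtOH vs. TLR4-KO (0.34%) and 0 of 4 for TLR4-KO + EtOH vs. WT + EtOH (0.509%). At an unadjusted p under 0.05 the members numbered 0, 2 (mmu-mir-146a and mmu-mir-21a), 1 (mmu-mir-146a) and 0, where 12.6%, 12.2%, 6.96% and 4.58% of all precursors were below that value. With ethanol in WT, the ranges did not overlap for 2 members, mmu-mir-21a and mmu-mir-146a, both lower, as for 9.51% of all precursors, and 7.3% were higher in this way. For TLR4-KO vs. WT they did not overlap for 1 member, mmu-mir-146a, lower (8.49% of all precursors, with 7.13% higher), and for TLR4-KO + EtOH vs. TLR4-KO for 1 member, mmu-mir-146a, higher (3.9% of all precursors, with 2.21% lower). For TLR4-KO + EtOH vs. WT + EtOH they overlapped for the 3 members above 0 in all libraries, where 2.38% of all precursors were higher and 2.55% lower. mmu-mir-146a was 1 of the 32 precursors (5.43%) below every WT library in both WT + EtOH and TLR4-KO. An exact permutation test of 3 libraries against 3 gave p = 0.1 in each of these 4 cases, the smallest p that this design allows. All shares of precursors, here and below, are over the 589. These include the 265 at 0 in every library, which could neither be called nor separate between groups. Among the 324 precursors with signal each share would be higher, so that the shares make a detected member look rarer than it is. The median difference of the 4 members was −7.19 with ethanol in WT and −8.21 for TLR4-KO vs. WT, where the median of all 589 precursors was 0 and that of the 190 above 0 in all libraries was 0.31 and 0.55. Both comparisons use the same WT libraries and are not independent of each other, and the members were chosen with earlier results of these data known. For ethanol in TLR4-KO and for TLR4-KO + EtOH vs. WT + EtOH the medians of the members were 1.04 and 1.03.

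**Figure D2:**
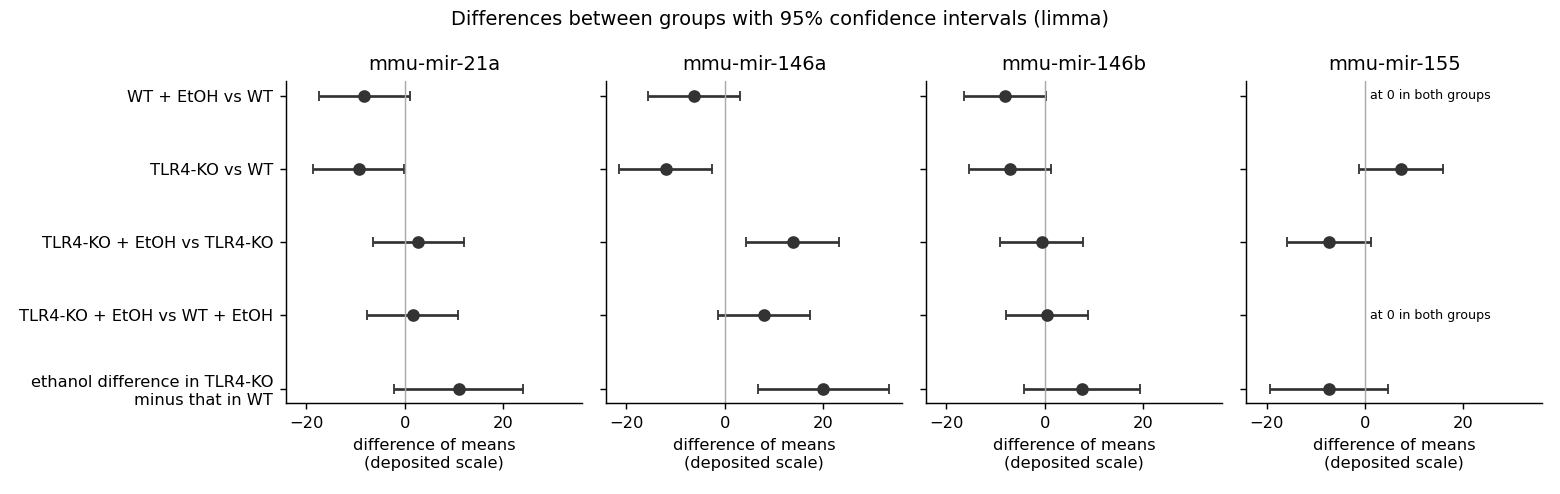
Difference of group means on the deposited scale (x axis) with the 95% confidence interval from limma for each member and comparison (y axis). For mmu-mir-146a the interval lies below 0 for TLR4-KO vs. WT (−21.4 to −2.60) and above 0 for TLR4-KO + EtOH vs. TLR4-KO (4.40 to 23.2), before adjustment over the 589 precursors.

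The ethanol difference was then compared between genotypes, as that in TLR4-KO minus that in WT. For mmu-mir-146a this contrast was 20.01 (SE 5.80, 95% interval 6.71 to 33.3, unadjusted p = 0.00823, adjusted p = 0.194 from limma), for mmu-mir-21a 10.97 (95% interval −2.15 to 24.1, adjusted p = 0.578 from limma), for mmu-mir-146b 7.50 (95% interval −4.29 to 19.3, adjusted p = 0.836 from limma) and for mmu-mir-155 −7.32 (95% interval −19.4 to 4.73, adjusted p = 0.875 from limma). Single libraries moved the contrast of mmu-mir-21a to 6.70 (without TLR4-KO replicate 2), that of mmu-mir-146b to 4.48 (without WT replicate 1) and that of mmu-mir-155 to −2.10 and −10.99 (without TLR4-KO replicate 2 or 3). None of the 4 members was called, against 1.19% of all precursors, and 1 had an unadjusted p under 0.05, against 12.6%. mmu-mir-146a was 1 of 5 precursors (0.849%) whose ethanol libraries were all below the water libraries in WT and all above them in TLR4-KO. The reverse pattern was found for 4 precursors (0.679%). The other 4 with the pattern of mmu-mir-146a, named after their values were seen, were mmu-mir-344d-3, mmu-mir-376a, mmu-mir-384 and mmu-mir-872. Of these 5, limma called the contrast for mmu-mir-344d-3 alone (18.4, adjusted p = 0.0280).

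**Figure D3:**
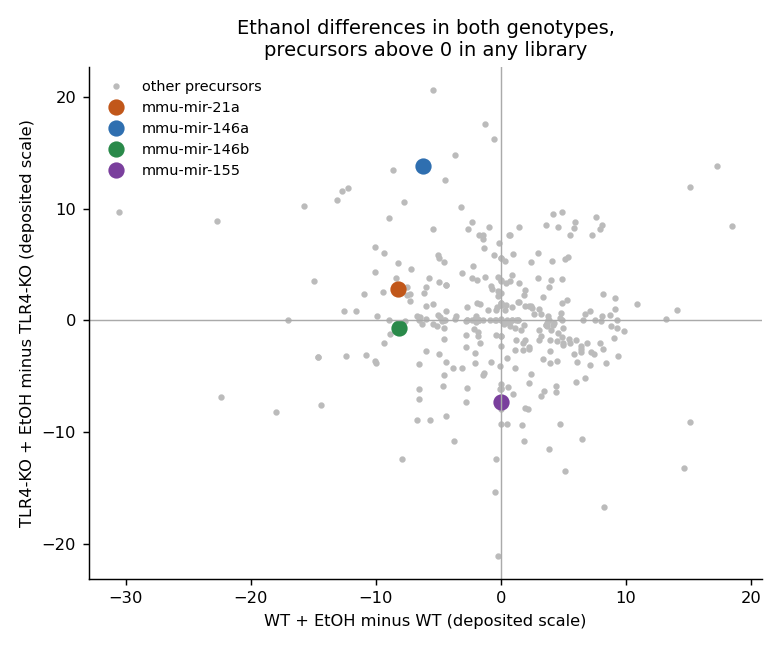
Ethanol difference in WT (x axis) against that in TLR4-KO (y axis), both on the deposited scale, for the 324 precursors above 0 in any library (grey points), with the 4 members in colour. mmu-mir-146a lies at −6.21 and 13.8, mmu-mir-21a at −8.21 and 2.76, mmu-mir-146b at −8.18 and −0.67, and mmu-mir-155 at 0 and −7.32.

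The surroundings of the members in the pathway were followed with 18 further precursors linked to TLR4 or NF-κB, of which 16 had a row in the table (mmu-mir-147 and mmu-mir-99b had none). Among the 11 listed precursors of miRNAs raised after TLR4 stimulation in myeloid cells, 1 rose with ethanol in WT, mmu-mir-125a, from 109 to 111 in the WT libraries to 115 in all WT + EtOH libraries (difference 4.22, SE 0.497, adjusted p = 0.00437 from limma). At this upper end of the scale few levels exist and libraries share the same value. At an unadjusted p under 0.05 were 5 of the 11, and 1.7% and 12.6% of all precursors passed these respective thresholds. This count of 5, and that for TLR4-KO vs. WT below, included mmu-mir-9-1, mmu-mir-9-2 and mmu-mir-9-3. These give the same mature miRNA and are not separate measurements, so that neither count can be set against the share as if they were. In TLR4-KO vs. WT 1 of the 11 rose and 1 fell, with 5 of the 11 at an unadjusted p under 0.05 (2.55% and 12.2% of all precursors). The first was again mmu-mir-125a (4.64, adjusted p = 0.00215 from limma), and the second mmu-mir-27b, which went from 12.1 to 24.5 in the WT libraries to 0 in all TLR4-KO libraries (−18.5, adjusted p = 0.0435 from limma). mmu-mir-27b is a near copy of miR-27a, and its counting may be split with it. Among the 5 precursors of miRNAs that act on parts of the pathway or are lowered by stimulation, 1 of 5 rose in both comparisons and was the only one at an unadjusted p under 0.05, mmu-mir-125b-2 (4.77, adjusted p = 3.22e-05, and 4.36, adjusted p = 6.69e-05 from limma), a miRNA known to repress Tnf. Its copy mmu-mir-125b-1, with the same mature miRNA, differed by 1.65 and 4.67 and was not called. mmu-mir-223 and mmu-mir-203 were at 0 in all libraries. For TLR4-KO + EtOH vs. TLR4-KO and vs. WT + EtOH, 0 of the 16 were called by limma, where 0.34% and 0.509% of all precursors were called. At an unadjusted p under 0.05 were 2 and 0 of the 16, and 6.96% and 4.58% of all precursors. The ethanol difference differed between genotypes for mmu-mir-125a (−4.43, adjusted p = 0.0280 from limma) and, by −4.56, for mmu-mir-125b-2 (limma's adjusted p = 0.00073), and the largest positive contrast was that of mmu-mir-27b (10.5, adjusted p = 0.557 from limma). The called ones are 1 of the 11 and 1 of the 5, where 1.19% of all precursors were called. Like mmu-mir-125a, mmu-mir-125b-2 lies at the upper end of the scale and had the same value, 115.5, in all WT + EtOH libraries, which narrows its SE.

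Several listed precursors had values that differed between groups without passing the test. The 3 precursors of miR-9, a miRNA that represses Nfkb1, were lower than in WT by −5.96, −5.14 and −4.74 with ethanol (adjusted p from 0.181 to 0.256 from limma) and by −6.05, −5.90 and −5.50 in TLR4-KO (adjusted p from 0.140 to 0.170 from limma), the same direction as mmu-mir-21a and mmu-mir-146b. Like mmu-mir-21a, miR-9 is listed by the study as not changed by ethanol in its RT-qPCR. The largest difference with ethanol in WT was that of mmu-mir-222, at 0 to 10.9 in WT and 17.6 to 25.4 in WT + EtOH (17.3, adjusted p = 0.244 from limma), and it was also the largest with ethanol in TLR4-KO (13.8, adjusted p = 0.685 from limma). mmu-let-7i, which is known to target Tlr4 mRNA, had the largest positive difference for TLR4-KO vs. WT (7.81, adjusted p = 0.671 from limma) and the largest negative one with ethanol in TLR4-KO (−6.05, adjusted p = 1 from limma). Between TLR4-KO + EtOH and WT + EtOH the extremes were mmu-mir-27b (−8.01) and mmu-let-7e (5.00), both with an adjusted p of 1 from limma.

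**Figure D4:**
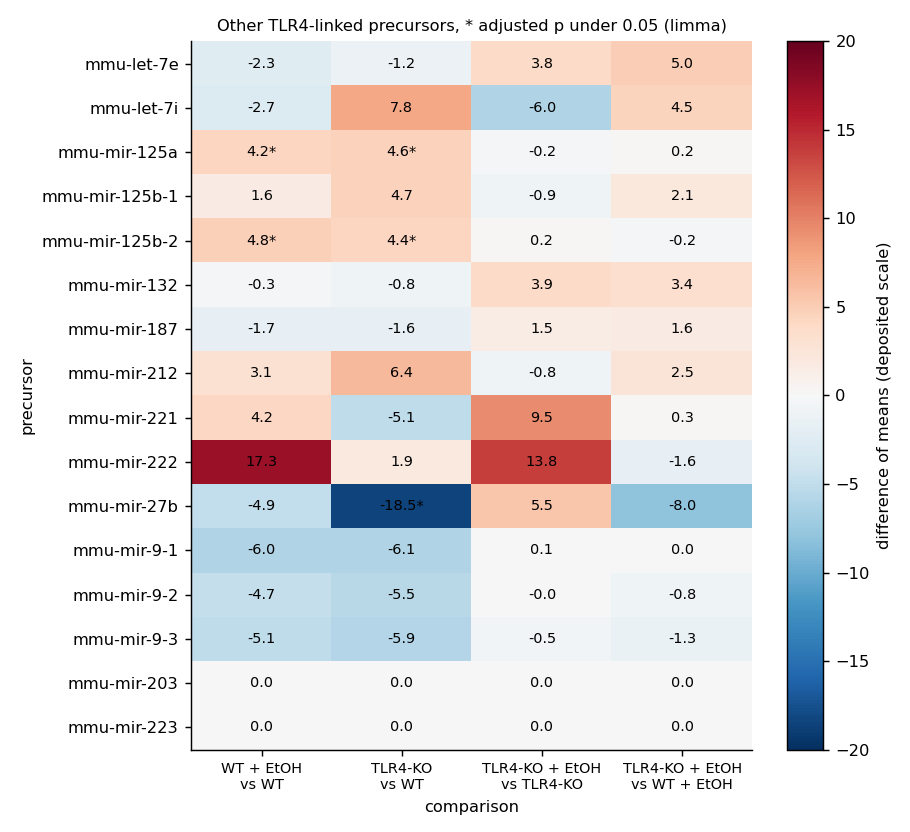
Differences of group means on the deposited scale (colour and number) for the 16 listed precursors linked to TLR4 or NF-κB (rows) in the 4 comparisons (columns), with an asterisk at an adjusted p under 0.05 from limma. Asterisks stand at mmu-mir-125a and mmu-mir-125b-2 in both comparisons with WT and at mmu-mir-27b in TLR4-KO vs. WT.

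Cortex holds several cell types that carry the members, and in bulk tissue fewer cells of a type and less RNA per cell cannot be told apart. Of the 4 precursors listed for leukocytes and microglia, 3 were above 0 in all libraries and mmu-mir-223, the defining myeloid miRNA, was at 0 in all 12. Summed over these 4, the values ranged from 130 to 141 in WT and 127 to 143 in TLR4-KO on water, and from 143 to 163 (WT) and 127 to 143 (TLR4-KO) with ethanol. Since the values behave as logarithms, such sums, here and below, describe levels on this scale and are not amounts of RNA or of cells. mmu-mir-342 of the same list was higher than in WT by 10.9 with ethanol (adjusted p = 0.244 from limma) and by 1.64 in TLR4-KO, and was not called. mmu-mir-142a, which is specific to blood-derived cells and microglia, averaged 44.2 in WT and 32.5 in TLR4-KO on water, and 41.4 and 32.5 with ethanol. For TLR4-KO vs. WT it differed by −11.8 (SE 6.22, adjusted p = 0.532 from limma), and its WT + EtOH libraries ranged from 28.3 to 55.5. Its difference with ethanol in TLR4-KO was −0.03 (adjusted p = 1 from limma), where that of mmu-mir-146a was 13.8. mmu-mir-150 of lymphocytes rose with ethanol in WT (7.41, adjusted p = 0.0444 from limma) and in TLR4-KO vs. WT (9.28, adjusted p = 0.00958 from limma), against the direction of mmu-mir-21a and mmu-mir-146a. Of the 4 erythroid precursors, mmu-mir-451a fell both with ethanol in WT (−14.6, adjusted p = 0.0346 from limma) and in TLR4-KO vs. WT (−17.6, adjusted p = 0.00948 from limma), the direction in which mmu-mir-21a differed. The others of this list were not called: mmu-mir-486b was higher than in WT by 8.19 and 8.76, mmu-mir-486a differed by −0.38 and 0.49, and mmu-mir-144 by 1.20 and −4.13. The summed erythroid values ranged from 241 to 256 in WT and 231 to 244 in TLR4-KO on water, and from 243 to 247 (WT) and 219 to 241 (TLR4-KO) with ethanol. The 3 vascular precursors differed in both directions with ethanol in WT, and none was called. mmu-mir-126a differed by −6.58 (adjusted p = 0.289 from limma), mmu-mir-143 by −6.45 (adjusted p = 0.0649 from limma) and mmu-mir-145a by 8.09 (adjusted p = 0.151 from limma), and their summed values were 196 to 204 in WT and 195 to 197 in WT + EtOH. The 7 neuronal precursors were all higher with ethanol in WT, where the 3 detected members were all lower, and 5 of the 7 were higher in TLR4-KO vs. WT. They are copies belonging to only 3 miRNAs, so that they are not 7 separate markers, and each miRNA enters their sum more than once. None of the 7 was called, with mmu-mir-128-1 the nearest to the threshold with ethanol in WT (9.29, adjusted p = 0.0563 from limma). The summed neuronal values ranged from 365 to 372 in WT and 390 to 410 in WT + EtOH, which did not overlap, from 356 to 398 in TLR4-KO, and from 364 to 403 in TLR4-KO + EtOH. How often sums of other precursors separate in this way was not computed. Of the 4 oligodendrocyte and 6 choroid plexus precursors, 0 were called in these comparisons, with 0 of 10 at an unadjusted p under 0.05 for WT + EtOH vs. WT and 1 of 10 for TLR4-KO vs. WT. For all lists in this paragraph, the shares of all precursors were 1.7% called and 12.6% at that unadjusted p for WT + EtOH vs. WT. For TLR4-KO vs. WT they were 2.55% and 12.2%. The part of blood, vessel, immune and neuronal cells in the members' values was not tested.

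The precursors whose values over the 12 libraries were most like those of each member were ranked by Pearson's r among 189 others above 0 in all libraries. For mmu-mir-146a they were mmu-mir-411 (r = 0.95), mmu-mir-181d (0.93) and mmu-mir-127 (0.90), for mmu-mir-21a mmu-mir-10b (0.90), mmu-mir-26b (0.83) and mmu-mir-3071 (0.80), and for mmu-mir-146b mmu-mir-218-2 (0.91), mmu-mir-218-1 (0.87) and mmu-mir-9-1 (0.87). After removal of the group means, mmu-mir-411 and mmu-mir-10b remained among the 3 most alike for mmu-mir-146a (r = 0.95) and mmu-mir-21a (0.84). The other precursors were then mmu-mir-873a (0.97) and mmu-mir-15a (0.93) for mmu-mir-146a, mmu-mir-376b (0.79) and mmu-mir-93 (0.70) for mmu-mir-21a, and mmu-let-7g (0.94), mmu-mir-3074-1 (0.91) and mmu-mir-1843a (0.90) for mmu-mir-146b. No member was among the 3 most like another, and the highest r between members was 0.61, for mmu-mir-21a and mmu-mir-146b. These values share libraries and a common normalization, are descriptions without a test, and mmu-mir-155 was not ranked.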

How the data were processed

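Libraries were made by the authors from pooled cortical small RNA with the TruSeq small RNA kit. Per the labels and the study's methods, reads were checked with FastQC 0.11.6, trimmed with cutadapt and mapped to non-coding RNA databases with Bowtie2 2.2.5 and TopHat (GRCm38), and counts per precursor were normalized by trimmed mean of M values. The deposited values are a normalized score without a stated unit, with the same highest value and a similar, not identical, distribution in all libraries. They are not counts, so that no count model was run, and the depth of the libraries was not used. The study's methods name no step that sets the same highest value in every library, so that the way from normalized counts to this score is not known.

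The values were fitted as they stand with limma 3.58.1 in R 4.3.3 (1 mean per group, 12 libraries, no covariate), with Benjamini-Hochberg adjustment over 589 precursors and a threshold of 0.05. Total degrees of freedom were 8.31. Exact permutation tests were two-sided (scipy 1.17.1, Python 3.11.15). Labels do not say that pools were raised separately, so that p-values measure the spread between pools. The study's edgeR model needs counts and was not repeated. Alternatives were other scalings, a filter, the compared groups alone, a replicate block and libraries left out. Named precursors are the members, the 3 most alike per member, and of the pathway list those called and the largest difference in each direction. The members and lists were chosen with earlier results of these data known. Sequences are from RefSeq, positions from GENCODE M21.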

Additional observations from a re-analysis of the deposited data

Results flagged for a closer look

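The ethanol difference of mmu-mir-146a differed in sign between genotypes in every library: all 3 WT + EtOH libraries were below the WT libraries, and all 3 TLR4-KO + EtOH libraries above the TLR4-KO libraries. The ethanol difference in TLR4-KO minus that in WT was 20.01 (SE 5.80, adjusted p = 0.194 from limma, and 0.0782 to 0.389 over the alternatives), and it was 15.3 without TLR4-KO + EtOH replicate 1. It thus did not pass the threshold after adjustment under any setting.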

How the results depend on the processing

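Of 317 values of the members under the alternatives, for 18 differences, 307 kept their direction and their side of the threshold, 9 changed direction and 1 passed the threshold. All 9 belong to mmu-mir-21a and mmu-mir-146b in the comparisons of TLR4-KO + EtOH. The filter, the compared groups alone, the replicate block and the loss of a library from a group not compared cannot move a difference. For these alternatives the direction was thus fixed in advance, and only the adjusted p could change. Centring on miR-181a and miR-181b, the references of the study's RT-qPCR, turned mmu-mir-146b to −0.74 for TLR4-KO + EtOH vs. WT + EtOH, where it moved the median of the 190 precursors above 0 in all libraries to −1.17. The miR-181a precursors did not differ between groups on the deposited scale, so that this shift came from those of miR-181b alone. Without 1 library, the difference of mmu-mir-146b for TLR4-KO + EtOH vs. WT + EtOH ranged from −1.52 to 2.63 and that of mmu-mir-21a from −0.38 to 3.23. For TLR4-KO + EtOH vs. TLR4-KO, mmu-mir-21a ranged from −1.51 to 7.53 and mmu-mir-146b from −2.87 to 1.52. For TLR4-KO vs. WT, mmu-mir-21a ranged from −14.1 to −5.09, and passed the threshold without TLR4-KO replicate 3 (adjusted p = 0.0356 from limma, 0.0356 to 0.766 over its alternatives).

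The number of called precursors, which is the background for the members, was less stable. Among the 285 precursors above 0 in at least 3 libraries, where mmu-mir-155 drops out, limma called 21 for WT + EtOH vs. WT, 31 for TLR4-KO vs. WT and 13 for the difference between genotypes. For TLR4-KO + EtOH vs. TLR4-KO it called 0 after quantile normalization, after centring on miR-181 and with the compared groups alone (36, 43 and 25 at an unadjusted p under 0.05), and for TLR4-KO + EtOH vs. WT + EtOH 1, 0 and 0 (25, 30 and 25). Without 1 library the calls ranged from 4 (WT replicate 2) to 18 (TLR4-KO replicate 1), from 11 to 22, from 0 (TLR4-KO + EtOH replicate 2) to 4 (WT + EtOH replicate 3), from 0 (either of these 2) to 3 (34, 24 and 32 at an unadjusted p under 0.05 where limma called 0), and for the difference between genotypes from 2 (TLR4-KO + EtOH replicate 2) to 15 (WT + EtOH replicate 1). Whether replicate numbers pair the libraries is not given by the labels. The deviations of same-numbered libraries correlated from −0.11 to 0.15, with 10 of 18 pairs over 0.1, and 8 of 12 libraries were closest to their own number, a hint of pairing that not every pair bore out, and libraries were treated as unpaired. With the replicate block, calls moved to 24 for TLR4-KO vs. WT and to 3 for the difference between genotypes, and no member was called. The cause of these changes was not tested. Values near 0 and single libraries limit what can be said of mmu-mir-155, and the reads behind any value are not given with it.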
